A study of Homo sapiens with 24 samples.

Results

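The probes whose signal was higher after BRM knockdown were examined in SW-13 cells, a human adrenocortical carcinoma line that lacks BRG1. They were chosen from their own values. A probe had to be detected (detection p-value below 0.01) in all 3 untreated siCtrl siBRM arrays, and its log2 signal in siCtrl siBRM minus siCtrl cells, averaged over untreated and IFNγ-treated cells, had to be 0.5 or more. Probes that siSUZ12 moved by 1 or more on the log2 scale in untreated cells were left out. Of 47231 probes on the array, 14383 were detected in the required arrays, 88 reached the threshold, 33 of these were left out for siSUZ12 and 55 remained. These 55 siBRM-raised probes make up 0.382% of the detected probes. A probe measures a stretch of 1 transcript, and the files used here give probe IDs without gene names, so 55 probes need not be 55 genes.

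BRM and BRG1 are the alternative ATPase subunits of SWI/SNF, a complex that uses ATP to move nucleosomes and so changes which stretches of DNA are open to transcription factors. In a cell without BRG1, BRM is the only other ATPase the complex can use. How much BRM the SW-13 cells held was not measured here. The paper describes the line as lacking SWI/SNF activity and reports that depleting PRC2 raised BRM marginally. SUZ12 is a core subunit of PRC2, the complex that places the repressive H3K27me3 mark, and PRC2 and SWI/SNF are known to oppose each other at many genes. IFNγ is a cytokine that turns on a set of interferon-stimulated genes (ISGs) through the JAK-STAT pathway.

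The cells had been transfected repeatedly with siCtrl or siSUZ12 at 50 nM, in 4 of the groups also with siBRM at 75 nM, and a 6-hour exposure to IFNγ or none followed. This gave 8 groups with 3 arrays each (siCtrl, siCtrl siBRM, siSUZ12 and siSUZ12 siBRM, each without and with IFNγ), which the Methods call biological replicates. Cells with siBRM received 125 nM siRNA in all and the others 50 nM, so loss of BRM and the higher siRNA dose cannot be told apart. The knockdown of BRM and SUZ12 was not read from the arrays because their probes could not be named, and neither could markers of the adrenal cortex. Array means of the signal lay between 532 and 635, and 15223 to 16799 probes were detected in an array. In all 24 cases the closest array by correlation came from the same group.

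In siCtrl cells the median change of the 55 probes with siBRM was 0.59 on the log2 scale untreated and 0.62 with IFNγ. These values chose the probes and are given as a description. The mean of both changes, on which the choice rested, ran from 0.5001 to 1.02 with a median of 0.59, and only 2 probes reached 1. The threshold cut through a continuum, since the lowest values inside it were 0.5001 and 0.502 and the highest outside it were 0.498 and 0.495. At the other limit, the highest siSUZ12 effects kept were 0.98 and 0.97 and the lowest left out were 1.01 and 1.02.

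In brightness the siBRM-raised probes lay close to the detected probes as a whole. Their mean signal in untreated siCtrl cells, in arbitrary units, ran from 125 to 5012 with a median of 496, against 429 over the detected probes. There were 7 probes under 200, 35 between 200 and 1000, and 13 of 1000 or more. Most were expressed in every condition: 52 of the 55 were detected in all 24 arrays. The remaining 3 fell short only in siCtrl cells, where 52 probes were detected in all untreated arrays and 53 in all IFNγ-treated arrays, against 55 in each of the other 6 groups. The choice required detection in untreated siCtrl siBRM arrays and favoured low values in siCtrl cells. The share of the detected probes that were detected in all 24 arrays was not counted. The spread between replicate arrays was small, with a median residual SD of 0.08 on the log2 scale (detected probes 0.09).

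**Figure D1:**
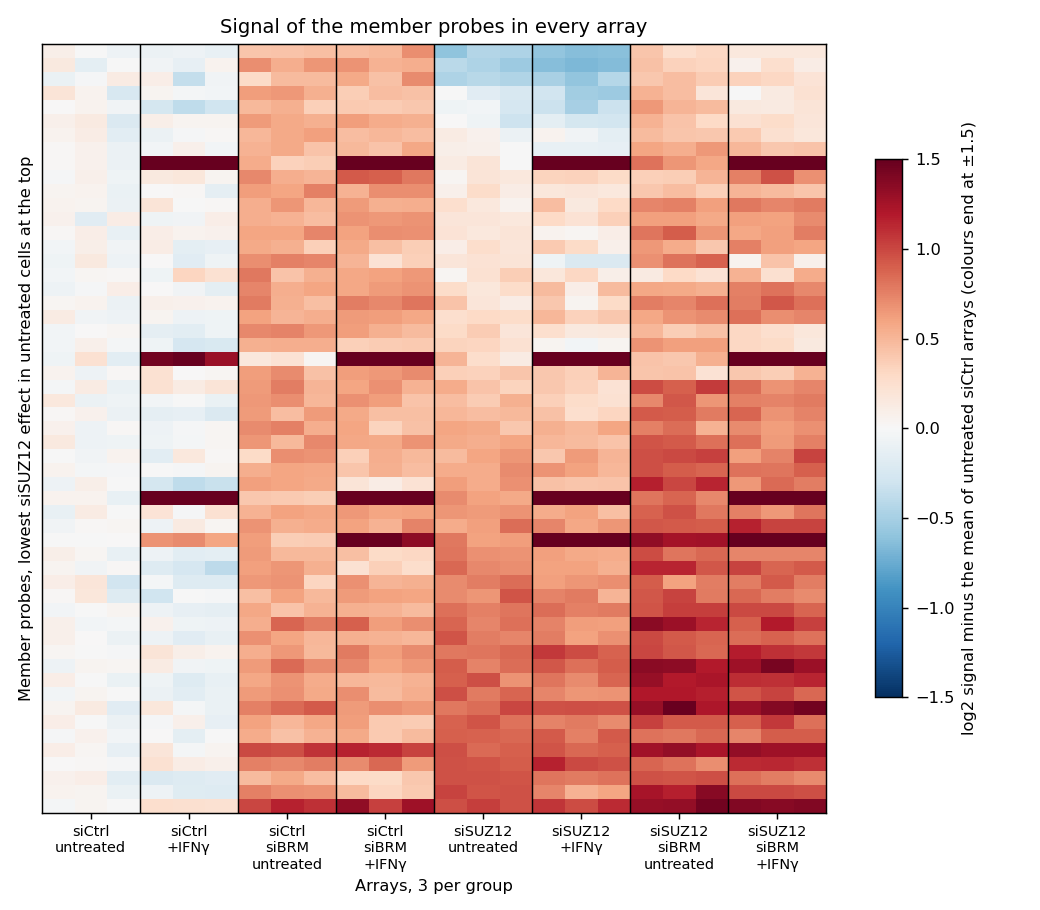
Log2 signal of the 55 siBRM-raised probes (vertical) in each of the 24 arrays (horizontal, 3 per group), minus the probe's mean in the untreated siCtrl arrays, with probes ordered by their siSUZ12 effect in untreated cells. Red is higher and blue lower than untreated siCtrl, and the colours end at 1.5. On average all 55 probes lie above untreated siCtrl in each of the 4 groups with siBRM. The choice of probes favoured this, since it used the untreated siCtrl and both siCtrl siBRM groups. The 4 dark stripes in the IFNγ columns are the probes that IFNγ raised most.

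The IFNγ-treated siSUZ12 cells hold a second measurement of the same knockdown. None of their arrays, with or without siBRM, entered the choice of probes, but the choice still bears on it. The 33 probes left out for siSUZ12 were also high in these cells, with a median siSUZ12 effect of 1.64 against 1.60 untreated. Leaving them out favours higher siBRM effects among the 55 here as well. Most of the siBRM-raised probes rose with siBRM in these cells too. Of the 55 probes, 36 (65.5%) were called as raised and 0 as lowered (limma, Benjamini-Hochberg adjusted p-value below 0.05 over all probes). The same call was made for 1.68% of all probes and 4.94% of the detected probes in the raised direction, and for 1.71% and 4.53% in the lowered direction. The median change was 0.34 on the log2 scale, or 1.27-fold, against 0.03 over all probes and 0.02 over the detected probes. This was smaller than in siCtrl cells, where the changes had chosen the probes, and the difference was not tested. Before adjustment for multiple tests, 45 probes rose at a p-value below 0.05 and 0 fell. Standard errors of single changes were 0.07 to 0.10.

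The measurement in untreated siSUZ12 cells is not independent of the choice either, and is tied to it more directly. Its baseline, the untreated siSUZ12 arrays, was also used to leave out the 33 probes that were high in them, which favours higher siBRM effects among the 55. There, too, 36 of the 55 probes were called as raised and 0 as lowered (limma, adjusted as before), against 1.29% of all probes and 3.98% of the detected probes raised, and 1.65% and 4.23% lowered. The median change was again 0.34, against -0.01 over all probes and 0.01 over the detected probes, and before adjustment 43 probes rose at a p-value below 0.05 and 0 fell. When the 33 probes were put back, 40 of 88 were called as raised untreated and 41 of 88 with IFNγ, 1 was called as lowered in each state, and the median changes were 0.23 and 0.25 (chosen after seeing the data).

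The size of the change was even across arrays. Each siSUZ12 siBRM array can be set against each siSUZ12 array of the same state, and over these 9 pairings the median change of the 55 probes was 0.28 to 0.38 untreated and 0.28 to 0.40 with IFNγ. For 42 of the 55 probes untreated, all 3 siSUZ12 siBRM arrays lay above all 3 siSUZ12 arrays, as they did for 7.9% of all probes and 17.5% of the detected probes, and for 1 probe all lay below (9.11% and 15.5%). With IFNγ the arrays were fully separated upward for 47 probes (10.2% of all, 18.2% of detected) and downward for 0 (6.79% and 15.3%). A permutation of 3 arrays against 3 cannot give a two-sided p-value below 0.1, so the calls rest on the spread shared over 24 arrays. The number of calls depended on the number of arrays. Leaving out replicate number 1, 2 or 3 of every group left 21, 17 or 20 probes called untreated and 25, 12 or 20 with IFNγ, while the median change stayed between 0.33 and 0.37, and leaving out a single array left 28 to 32 calls untreated and 25 to 34 with IFNγ.

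Few of these changes were large. At an added requirement of 1.5-fold, 7 probes were called as raised untreated (0.11% of all and 0.341% of detected probes) and 7 with IFNγ (0.116% and 0.368%). Of these, 4 were called in both states, and the share of other probes called in both was not counted. The upper end was 0.86 untreated and 0.80 with IFNγ on the log2 scale, and no probe reached 1.

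**Figure D2:**
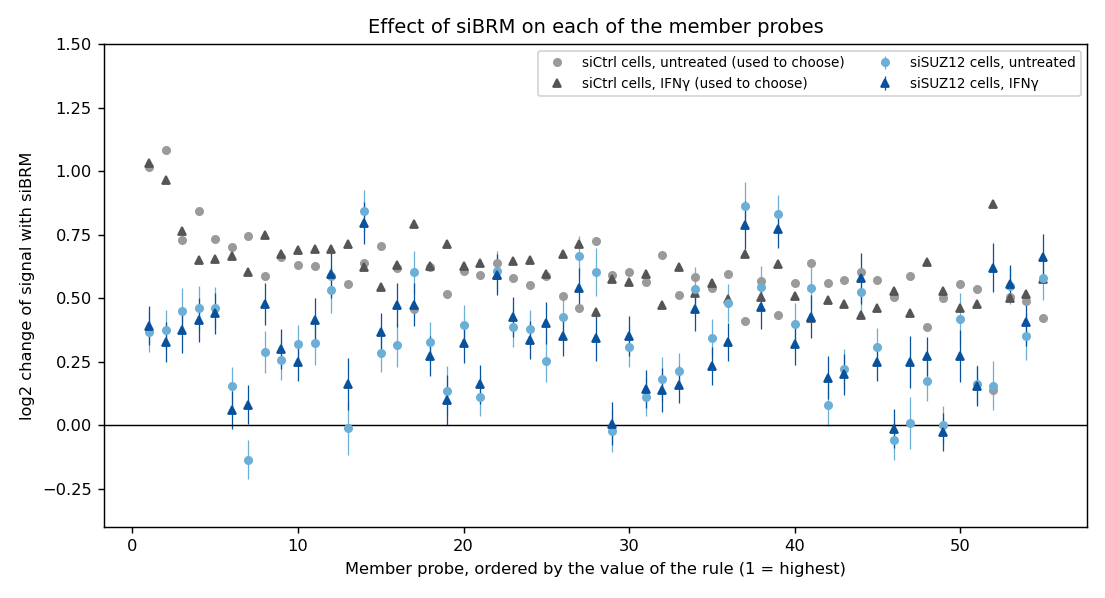
Log2 change of signal with siBRM (vertical axis) for each of the 55 probes, ordered along the horizontal axis by the value used to choose them, in siCtrl cells (grey and black, used for the choice) and in siSUZ12 cells (blue, bars are standard errors, 3 arrays per group). In siSUZ12 cells most probes lie above 0 and below their siCtrl values, with medians of 0.34 in both states, and a minority lies at 0.

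The same probes tended to move in both states. There were 32 probes raised both untreated and with IFNγ, 4 raised only untreated, 4 raised only with IFNγ and 15 called in neither. Changes were above 0 in both states for 50 of the 55. Of the detected probes, 52.5% lay above 0 untreated and 54.5% with IFNγ. The shares of other probes called in both states, or above 0 in both, were not counted. Probes called in 1 state only lay close to the limit of what was called: the lowest change called was 0.29 untreated and 0.27 with IFNγ, and the highest not called was 0.26 and 0.27. Across the 55 probes the changes of both states had a Pearson r of 0.85 and a Spearman rho of 0.80, measured on separate arrays (0.77 and 0.69 over the detected probes). Among the 15 probes called in neither state, 12 changed by less than 0.2 on the log2 scale in both.

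Within the list, a probe's siBRM change in siCtrl cells and its mean signal said little about the size of its change in siSUZ12 cells. The value used for the choice and the siBRM effect in IFNγ-treated siSUZ12 cells had a Pearson r of -0.00 and a Spearman rho of 0.04 over the 55 probes. The mean log2 signal over all 24 arrays gave -0.11 and -0.11. Of the 24 probes at 0.6 or more, 18 were called as raised in each state (75%), and of the 31 between 0.5 and 0.6, 18 were (58.1%), a difference that was not tested. Among 88 probes just under the threshold, at 0.4 to 0.5, the calls were 23 untreated (26.1%) and 29 with IFNγ (32.95%), with median changes of 0.18 and 0.16.

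The 55 probes also differed in their response to siSUZ12. The siSUZ12 effect in untreated cells without siBRM ran from -0.50 to 0.98 over the 55 probes, with a median of 0.52. This is the value by which probes were left out, with its upper limit set at 1, so it is used here only to order the probes and nothing is read from its level. Its relation was taken with the siBRM effect in IFNγ-treated siSUZ12 cells. They share no array, but a probe's level in siSUZ12 cells is added in the one and subtracted in the other. That level had a median of 0.52 over untreated siCtrl cells in both states, and this sharing favours a negative relation. The Pearson r was -0.67 and the Spearman rho -0.58 over the 55 probes, against -0.19 and -0.15 over the detected probes. These are correlations across probes, which are not independent replicates and may include several of 1 gene, within a range of siSUZ12 effects that the choice had cut, and they are given as a description.

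**Figure D3:**
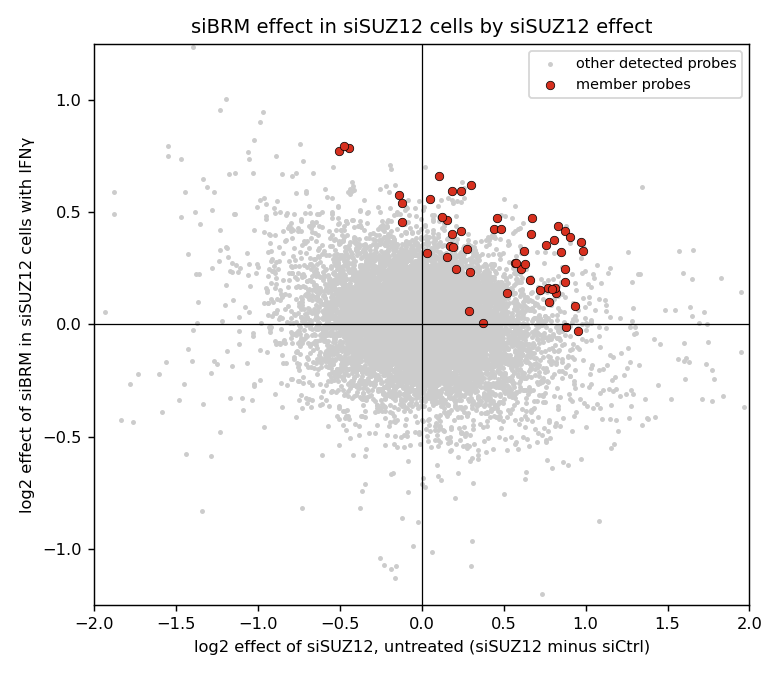
Log2 effect of siSUZ12 in untreated cells (horizontal axis) and log2 effect of siBRM in IFNγ-treated siSUZ12 cells (vertical axis) for the 55 siBRM-raised probes (red) and the other detected probes (grey, of which 18 lie outside the axes); each point is a difference of means of 3 arrays. The red points slope downward from left to right (r -0.67), with a median of 0.48 in the third of the probes farthest to the left and of 0.22 in the third farthest to the right, where they still reach 0.44.

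Ordered by their siSUZ12 effect, which the choice had limited, and divided into 3 sets, the probes gave the following values as a description. Over all detected probes 4.94% were called as raised with IFNγ, and shares of other probes within these ranges were not counted. In the 19 probes with the lowest siSUZ12 effects, -0.50 to 0.24, the median siBRM effect in IFNγ-treated siSUZ12 cells was 0.48 and 18 were called as raised. In the 18 probes between 0.28 and 0.72 the median was 0.27 and 10 were called. In the 18 probes between 0.76 and 0.98 it was 0.22 and 8 were called. The 3 sets had similar changes with siBRM in siCtrl cells, with medians of 0.55, 0.56 and 0.62. Their signals in untreated siCtrl cells were 474, 365 and 603 at the median and did not follow that order.

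In 6 probes the siSUZ12 effect in untreated cells was below 0, with a median of -0.29. All 6 were called as raised by siBRM in siSUZ12 cells in both states, by 0.46 to 0.80 with IFNγ. The same call was made for 3.98% of the detected probes untreated and 4.94% with IFNγ, and the share called in both was not counted. The siSUZ12 effect was also used in the choice and shares the untreated siSUZ12 arrays with the untreated siBRM effect. The values in this paragraph are therefore a description, and their differences were not tested. The 4 probes that passed 1.5-fold in both states had a median siSUZ12 effect of -0.46. The 32 probes called in both states had a median siSUZ12 effect of 0.24, and the 15 called in neither had one of 0.77. For the 33 probes left out because siSUZ12 raised them by 1 or more, the median siSUZ12 effect was 1.60 and the median siBRM effect in siCtrl cells was 0.73, and 4 were called as raised by siBRM in untreated siSUZ12 cells (12.1%) and 5 with IFNγ (15.2%), with median changes of 0.08 in both states.

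The levels of the 8 groups are set side by side here as a description. The siCtrl, siCtrl siBRM and untreated siSUZ12 arrays among them were used in the choice of probes. Relative to untreated siCtrl cells, the median of the 55 probes was 0.59 untreated and 0.58 with IFNγ in siCtrl siBRM cells, 0.52 and 0.52 in siSUZ12 cells, and 0.80 and 0.77 in siSUZ12 siBRM cells. Medians taken array by array lay close together within a group, between 0.54 and 0.62 for untreated siCtrl siBRM cells, 0.53 and 0.55 for untreated siSUZ12 cells, and 0.78 and 0.84 for untreated siSUZ12 siBRM cells. All 55 probes stood above untreated siCtrl in untreated siSUZ12 siBRM cells, 12 of them by 2-fold or more. The choice favoured probes that were low in untreated siCtrl cells, and the share over all probes was not counted, so nothing is read from this count. The double knockdown stayed below the sum of the single effects in 47 of the 55 probes untreated and in 47 with IFNγ, with median changes against siCtrl cells of the same state of 0.80 where the sum was 1.08 and of 0.83 where it was 1.10. The sums contain the values that chose the probes, and these differences were not tested. The siBRM effect was larger in siSUZ12 than in siCtrl cells for 8 probes untreated and 8 with IFNγ, and for 5 of them in both.

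Among the probes called in IFNγ-treated siSUZ12 cells, ILMN_1727778 had the highest value used for the choice, 1.02. Its signals in the 3 untreated arrays were 604, 572 and 516 in siCtrl cells, 1120, 1098 and 1194 in siCtrl siBRM cells, 1096, 1018 and 1045 in siSUZ12 cells and 1352, 1403 and 1316 in siSUZ12 siBRM cells. The siCtrl arrays lay lowest, the siSUZ12 siBRM arrays lay highest, and the groups with a single knockdown lay between them. With IFNγ the group means were 589 ± 46.0, 1204 ± 57.9, 1049 ± 30.5 and 1376 ± 27.1 in the same order (SD, n = 3), so siBRM alone gave 2.05-fold and siSUZ12 alone 1.78-fold the control, values of the kind used in the choice. In siSUZ12 cells siBRM raised it by 0.37 untreated (SE 0.08, limma adjusted p = 0.00337) and by 0.39 with IFNγ (SE 0.08, limma adjusted p = 0.00152). These calls were lost without replicate number 2 (limma adjusted p = 0.217 untreated and 0.0902 with IFNγ) and, untreated, without number 3 (0.0562), with changes of 0.32 or more throughout.

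ILMN_1724396 had the largest siBRM effect in IFNγ-treated siSUZ12 cells. Its untreated signals were 1398, 1140 and 1261 in siCtrl cells, 2053, 1839 and 2003 in siCtrl siBRM cells, 950, 916 and 864 in siSUZ12 cells and 1706, 1610 and 1582 in siSUZ12 siBRM cells. Here the siSUZ12 arrays lay below the siCtrl arrays, and both groups with siBRM lay above them without overlap. With IFNγ the signals were 808, 792 and 807 in siSUZ12 cells and 1318, 1504 and 1365 in siSUZ12 siBRM cells. The siBRM effect in siSUZ12 cells was 0.84 untreated (SE 0.08, limma adjusted p = 1.28e-08) and 0.80 with IFNγ (SE 0.08, limma adjusted p = 4.64e-08), above the 0.64 and 0.62 in siCtrl cells, and kept its call in every alternative tried.

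**Figure D4:**
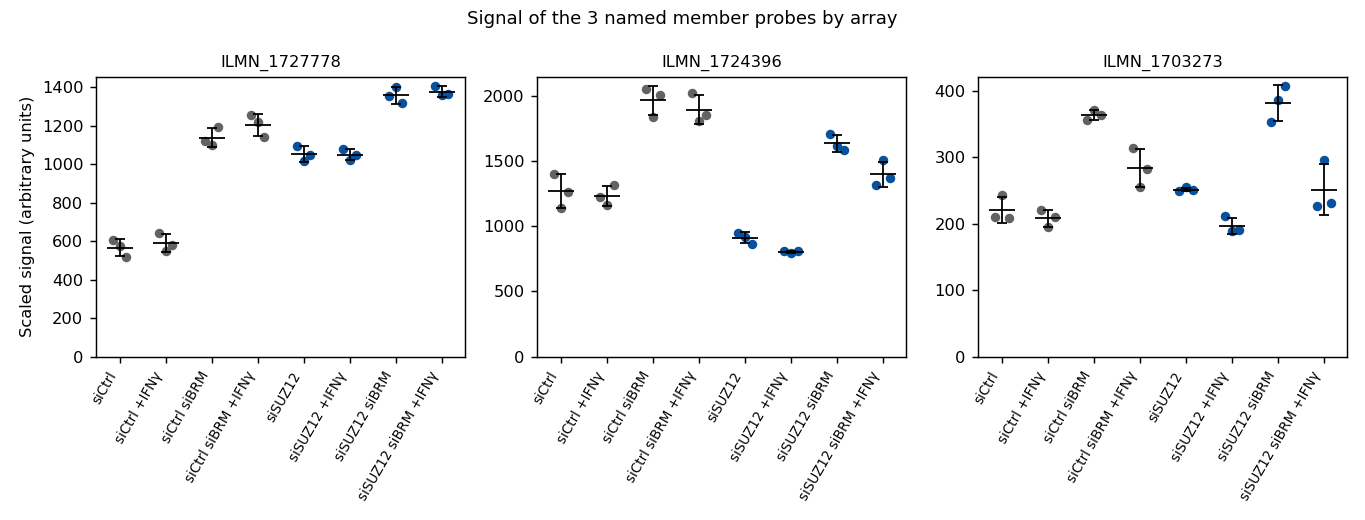
Scaled signal in arbitrary units (vertical axis, from 0) of 3 of the siBRM-raised probes in the 8 groups (horizontal axis), with a point per array and bars for the mean and SD of 3 arrays, grey for siCtrl and blue for siSUZ12 cells. ILMN_1727778 is lowest in siCtrl cells and highest in siSUZ12 siBRM cells (1376 with IFNγ). ILMN_1724396 is lowest in siSUZ12 cells (802 with IFNγ), and ILMN_1703273 is lower with IFNγ than without in both groups with siBRM.

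IFNγ left most of the siBRM-raised probes near their untreated level. In siSUZ12 cells 4 of the 55 were called as raised by IFNγ and 3 as lowered (limma, adjusted p-value below 0.05), against 1.2% of all probes and 2.85% of the detected probes raised, and 0.711% and 1.78% lowered. In siSUZ12 siBRM cells the counts were 6 raised (1.44% of all, 3.53% of detected) and 5 lowered (0.915%, 2.77%). In siCtrl cells they were 4 raised (0.593%, 1.61%) and 2 lowered (0.127%, 0.389%), and in siCtrl siBRM cells 4 raised (0.987%, 2.61%) and 4 lowered (0.315%, 0.994%). The arrays of siCtrl, siCtrl siBRM and untreated siSUZ12 cells were also used to choose the probes, though in other contrasts. The 4 probes called as raised in siCtrl cells reached the threshold of the choice only through their IFNγ-treated arrays. The raised counts are therefore a description. The median IFNγ effect over the 55 probes lay between -0.08 and -0.02 in the 4 backgrounds. The raised counts held without any replicate number at 4 or more, whereas the lowered counts went to 0 to 1 in siSUZ12, siCtrl and siCtrl siBRM cells and to 2 to 3 in siSUZ12 siBRM cells when a number was left out.

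The same 4 probes were called as raised by IFNγ in all 4 backgrounds. In the order siCtrl, siCtrl siBRM, siSUZ12 and siSUZ12 siBRM, the log2 change with IFNγ was 1.44, 2.17, 2.17 and 2.63 for the first, which had the lowest change of the 4 groups in siCtrl cells and the highest with both siRNAs. It was 2.08, 2.23, 2.25 and 2.33 for the second and 1.71, 1.97, 1.82 and 1.91 for the third. The fourth changed by 0.66, 0.99, 0.98 and 0.85. In siSUZ12 siBRM cells 2 further probes were called, at 0.39 and 0.32.

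The 4 probes raised in all backgrounds entered the list through their IFNγ-treated arrays. In the order above, their siBRM effects in untreated siCtrl cells were below 0.5, at 0.14, 0.42, 0.39 and 0.46. With IFNγ they were 0.87, 0.58, 0.64 and 0.79. The first probe was dim, with a signal of 135 in untreated siCtrl cells, where an unsubtracted background would make changes smaller. Its siBRM effect in siCtrl cells was 0.14 untreated and 0.87 with IFNγ, and in siSUZ12 cells it was 0.16 and 0.62. A probe with so low an untreated value could enter only by a high value with IFNγ, so no test of the difference between both states is given for siCtrl cells. In siSUZ12 cells the effect of siBRM on its induction was 0.46 on the log2 scale and was not past the threshold (limma interaction, adjusted p = 0.823). For the list as a whole, this effect was called for 0 probes in siSUZ12 cells (limma, against 0.0106% of all probes raised and 0.0169% lowered), with 1 higher and 0 lower at an unadjusted p-value below 0.05.

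**Figure D5:**
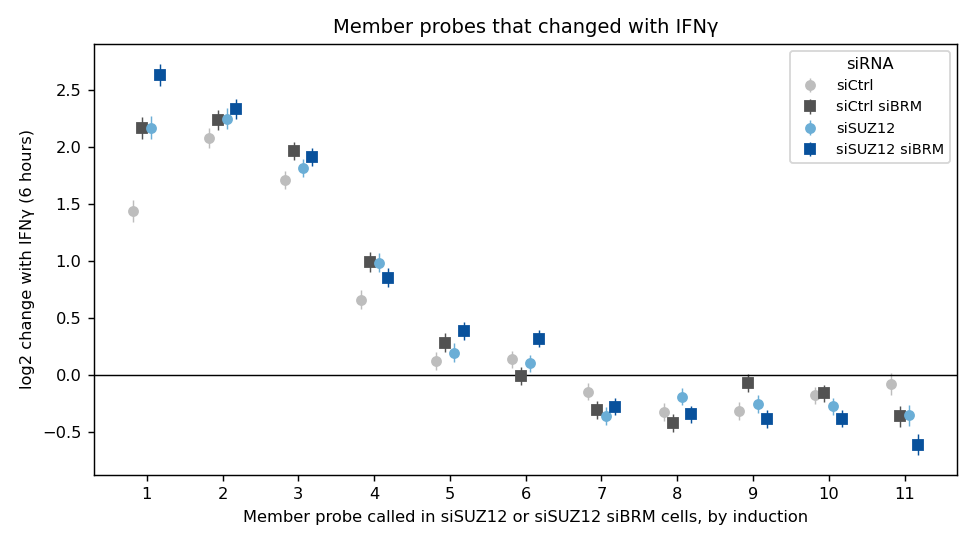
Log2 change with IFNγ (6 hours, vertical axis) in the 4 siRNA backgrounds for the 11 siBRM-raised probes that were called in siSUZ12 or siSUZ12 siBRM cells (horizontal axis, ordered by change), as differences of means of 3 arrays with their standard errors. The first 4 probes lie between 0.66 and 2.63 in every background, and the other 7 between -0.61 and 0.39.

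IFNγ lowered ILMN_1703273 more than any other of the 55 probes in siSUZ12 siBRM cells. Its signals there were 354, 387 and 408 untreated and 227, 296 and 232 with IFNγ, which did not overlap, and the change was -0.61 (SE 0.09, limma adjusted p = 2.63e-05). Lower values with IFNγ were also called in siSUZ12 cells, from 249, 255 and 251 to 211, 190 and 190 (-0.35, limma adjusted p = 0.0351), and in siCtrl siBRM cells, from 357, 371 and 364 to 314, 256 and 283 (-0.36, limma adjusted p = 0.0372). The call in siSUZ12 siBRM cells held without any replicate number or array of those groups (limma adjusted p up to 0.0297). The calls in siSUZ12 and siCtrl siBRM cells were lost without each replicate number and without each single array other than IFNγ array 1, at limma adjusted p from 0.074 to 0.374 and from 0.0567 to 0.495, and the latter also in a fit of only the groups compared (0.0686). In siCtrl cells its signals were 210, 243 and 209 untreated and 220, 195 and 210 with IFNγ, which overlapped (-0.08, limma adjusted p = 0.958). The siBRM effect in siSUZ12 cells was 0.60 untreated (SE 0.09, limma adjusted p = 6.7e-05) and 0.34 with IFNγ (SE 0.09, limma adjusted p = 0.029). The call of the siBRM effect with IFNγ was lost without replicate number 2 or 3 (limma adjusted p = 0.568 and 0.18), without siSUZ12 siBRM array 2 (0.299) or siSUZ12 array 2 or 3 (0.136 and 0.13), and in a fit of only the groups compared (0.12).

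The opposite list was made by turning the sign of the choice and asking for detection in all untreated siCtrl arrays instead. This gave 138 probes lowered by 0.5 or more with siBRM in siCtrl cells. In siSUZ12 cells 67 of them (48.6%) were called as lowered by siBRM untreated and 61 (44.2%) with IFNγ, with median changes of -0.30 and -0.26. The shares given above, 4.23% and 4.53%, are of probes detected in the untreated siCtrl siBRM arrays, which is not quite the same set. In siCtrl cells, where the values chose the list, the median of the 138 was -0.64 untreated and -0.62 with IFNγ. The difference between the 2 lists in the share of calls was not tested.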

How the data were processed

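Cells of 8 groups with 3 arrays each were compared; group and replicate number came from the sample titles. The authors hybridized cRNA to Illumina BeadChips, read them with BeadStudio and deposited, without normalization, the signal intensity of each probe in each array with its detection p-value. Whether background had been subtracted is not given in the sources used here, and an unsubtracted background makes folds of dim probes smaller. Signals were scaled so that every array had the mean of all array means, on the reading that this is the average normalization of the Methods, and log2 was taken. No intensity was at or below 0. limma 3.58.1 in R 4.3.3 (lmFit, eBayes) was fitted to the 24 arrays together with 1 coefficient per group (16 residual degrees of freedom), and p-values were adjusted by Benjamini-Hochberg over all 47231 probes of a comparison. A probe was called at an adjusted p-value below 0.05.

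The probes, lists and tests were chosen with earlier results of these data known. No test is given for contrasts used in the choice of probes. The choice also barred 3 probes by ID, which had values of -1.81 to -0.50 and so did not reach the threshold. The gene name tables held 0 of the probe IDs, so the gene lists planned by pathway could not be used and no sequence is shown. By rule, the probes named were those called in IFNγ-treated siSUZ12 cells with the highest value used for the choice and the largest siBRM effect, and the one that IFNγ lowered most in siSUZ12 siBRM cells. No probe was called as lowered by siBRM in siSUZ12 cells, so none was named for that. Arrays give no counts, and 3 per group limit the precision. Same-numbered arrays of different groups had correlations of their deviations from -0.10 to 0.39, with a median of 0.13. The main fit left the numbers out, and a replicate block was run as an alternative. Alternatives were other normalizations, a detection filter, trend and robust settings, a fit of only the groups compared, a replicate block, a 1.5-fold requirement, other limits for the choice, and leaving out each replicate number and each array. Plots were made in Python 3.11.15 using matplotlib 3.10.9.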

Additional observations from a re-analysis of the deposited data

How the results depend on the processing

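The list was held fixed in the alternatives unless stated, and all were run. Those for IFNγ in siCtrl and siCtrl siBRM cells, and the 88 probes chosen without leaving any out for siSUZ12, were added after seeing the data. The median siBRM effect in siSUZ12 cells stayed above 0 throughout, and no result changed direction. It was 0.39 untreated and 0.40 with IFNγ after the neqc background correction, and 0.22 and 0.25 for the 143 probes chosen at 0.4 or more. Leaving out a replicate number or an array gave 0.32 to 0.36 untreated and 0.32 to 0.37 with IFNγ, with 17 to 32 and 12 to 34 of the 55 probes called as raised. Leaving out arrays lowers the residual degrees of freedom, and the low counts came without a whole replicate number (17 to 21 and 12 to 25). At 1.5-fold 7 and 7 were called. The 143 probes gave 59 and 65 raised with 1 lowered (with IFNγ), and the 24 probes at 0.6 or more gave 18 and 18. The 88 probes gave medians of 0.23 and 0.25 and 1 lowered in each state.

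Calls of probes lowered by IFNγ were the least stable. In siSUZ12, siSUZ12 siBRM, siCtrl and siCtrl siBRM cells, leaving out arrays gave 0 to 3, 2 to 5, 0 to 1 and 0 to 3, and raised calls stayed at 4, 4 to 6, 4 and 4. Single arrays were enough: the 3 lowered calls in siSUZ12 cells became 1 without untreated array 1 or 2 or IFNγ array 3 and 0 without IFNγ array 2, the 5 in siSUZ12 siBRM cells became 3 without array 1 of either state, the 2 in siCtrl cells became 1 without array 1 and 0 without array 2 or 3 of either state, and the 4 in siCtrl siBRM cells became 1 without untreated array 1 or 2 or IFNγ array 3 and 2 without untreated array 3 or IFNγ array 2. At 1.5-fold the lowered calls were 0, 1, 0 and 0. A fit of only the groups compared left 3 in siSUZ12 siBRM, 0 in siCtrl and 1 in siCtrl siBRM cells. Scaling by array medians left 1 in siSUZ12 and 0 in siCtrl cells, and the detection filter gave 5 in siSUZ12 cells. The 143 probes gave 8 raised and 5 lowered in siSUZ12, 11 and 10 in siSUZ12 siBRM, 8 raised in siCtrl, and 9 and 8 in siCtrl siBRM cells. The 24 probes gave 1 and 1, 3 and 1, 1 and 0, and 1 and 1. Choosing 58 probes after quantile normalization gave 7 raised in siCtrl siBRM cells. The 88 probes gave 5 and 11 lowered in siSUZ12 and siSUZ12 siBRM cells and 7 raised in each of siCtrl and siCtrl siBRM cells. The causes were not tested.

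The main fit did not pair the arrays by replicate number. Yet in their deviations, 50 of 84 same-numbered pairs correlated at over 0.1, and 17 of 24 arrays correlated best with their own number. With the replicate block, 36 and 36 of the 55 probes were called as raised by siBRM in siSUZ12 cells, the same 36 as without it in each state, and no count moved by over 1.5 times.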
